A study of Homo sapiens with 10 samples.

Results

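The 10 genes described here set the step from G1 into S phase of the cell cycle, and they are the D-type cyclins CCND1, CCND2 and CCND3, the E-type cyclins CCNE1 and CCNE2, the kinases CDK4, CDK6 and CDK2, the retinoblastoma protein gene RB1 and the transcription factor gene E2F1. They were chosen by name as a pathway, and each has a row among the 18144 genes of the deposited expression table. RNA was sequenced in bulk, in 7 libraries, from PC-3 cells grown as 3D spheroids. PC-3 is an established line from a human prostate cancer. The untreated (CTRL) spheroids were sampled on days 0, 3 and 7. The other libraries came from spheroids given topotecan, a topoisomerase I inhibitor, either as CON (conventional, a bolus at the start) or as EE (extended exposure, the same weekly total in daily fractions), each on days 3 and 7. Every treatment and day was 1 library, all from the same line with the genotype labelled as wild type, and no library of day 1 was analysed here. The study's text speaks of 6 weeks of exposure where the sample labels say day 7, and its figure key gives a lower conventional dose for the earlier day, so that time, accumulated dose and library cannot be told apart.

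In G1, D-type cyclins bind CDK4 or CDK6, and E-type cyclins bind CDK2. Both kinds of complex phosphorylate the RB1 protein, which otherwise holds E2F factors inactive, and released E2F drives the genes of DNA replication, E2F1 and the E-type cyclins among them. CDK inhibitors such as p16 and p21 restrain the kinases, and camptothecins such as topotecan damage DNA mainly in S phase, which these genes open.

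The estimated depth was 15.0 to 22.5 M reads per library (M, 1000000), and values are given as counts per 1000000 reads (CPM). Against untreated spheroids and between days, the error is the spread among the 3 untreated days and between the 2 regimens on a day. For EE against CON, it is how far the gaps between CTRL, CON and EE libraries differed between day 3 and day 7. No condition was replicated, so p-values measure these spreads and not the spread between cultures. A change of share among cells and a change of RNA per cell cannot be told apart in bulk RNA. The epithelial and mesenchymal markers KRT8, KRT18, VIM and CD44 were high in every library, at 252 to 1169 CPM. TMPRSS2, a gene of androgen-responsive prostate cells that was expected near 0 in this line, stood at 71.4 to 149 CPM. Of 14836 genes tested, 43.4% passed an adjusted p of 0.05 (limma, Benjamini-Hochberg) on day 7 of topotecan against untreated spheroids, and 46.4% of these were higher. With scaling to library totals 29.4% of the called genes were higher and the median of all genes moved by -0.16 on the log2 scale.

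The promoters of E2F1, CDK4 and CDK6 are shown. E2F1 is an E2F target, and the CDK4 and CDK6 transcripts went opposite ways on day 7 before the trend with gene span was removed. Each line is the 250 bases before the RefSeq start on GRCh38.p14, 5′ to 3′ on the gene's strand, which is minus for all 3 genes, and capitals mark the E2F core.
E2F1 at chr20:33686386-33686635: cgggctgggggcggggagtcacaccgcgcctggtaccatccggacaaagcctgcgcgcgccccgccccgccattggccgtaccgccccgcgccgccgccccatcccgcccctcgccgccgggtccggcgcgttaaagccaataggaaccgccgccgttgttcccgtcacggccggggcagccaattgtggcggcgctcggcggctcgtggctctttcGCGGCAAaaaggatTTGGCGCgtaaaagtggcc
CDK4 at chr12:57752311-57752560: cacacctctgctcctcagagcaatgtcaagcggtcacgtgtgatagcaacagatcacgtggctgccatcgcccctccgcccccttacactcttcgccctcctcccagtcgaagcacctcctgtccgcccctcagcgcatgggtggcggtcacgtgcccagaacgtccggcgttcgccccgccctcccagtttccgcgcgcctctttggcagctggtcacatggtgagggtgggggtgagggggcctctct
CDK6 at chr7:92836574-92836823: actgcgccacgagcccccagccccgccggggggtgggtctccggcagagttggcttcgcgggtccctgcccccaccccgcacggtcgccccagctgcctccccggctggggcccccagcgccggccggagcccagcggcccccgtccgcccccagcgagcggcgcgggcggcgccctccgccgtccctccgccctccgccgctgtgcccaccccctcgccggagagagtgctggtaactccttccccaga
The core was searched as TTNNCGC with each N a C or a G, on both strands. The E2F1 promoter held 2 matches, which began 33 and 19 bases before the start, and such a match was present in 10.9% of 35116 RefSeq promoter windows of this length. The letters did not occur in the windows of CDK4, CDK6, CCND3 or CCNE1. A match is a description of the letters and not a site of binding in these cells.

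Per kilobase of its canonical transcript, CCND1, the main D-type cyclin of many epithelial cancers, was the most abundant of the 10 transcripts, with a median level of 213 CPM per kb over the 7 libraries. CDK4 followed at 48.7 CPM per kb and CCND3 at 29.2 CPM per kb. E2F1 and CDK2 came next at 21.4 and 21.1 CPM per kb, and their ranges of 16.0 to 23.3 and 18.0 to 26.1 overlapped. RB1 had a median of 9.70 CPM per kb and CDK6 of 4.01 CPM per kb. The E-type cyclins were low, with medians of 2.87 CPM per kb for CCNE2 and 2.39 CPM per kb for CCNE1, and the range of CCNE2 contained that of CCNE1. CCND2 was close to absent. Of the neighbours in this order, the ranges were apart for CCND1 and CDK4, CDK4 and CCND3, CDK2 and RB1, and CCNE1 and CCND2. The other ranges overlapped. Within each library, however, CCND3 was above E2F1 and RB1 was above CDK6. The order of E2F1 and CDK2, of CDK6 and CCNE2, and of CCNE2 and CCNE1 changed between libraries.

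**Figure D1:**
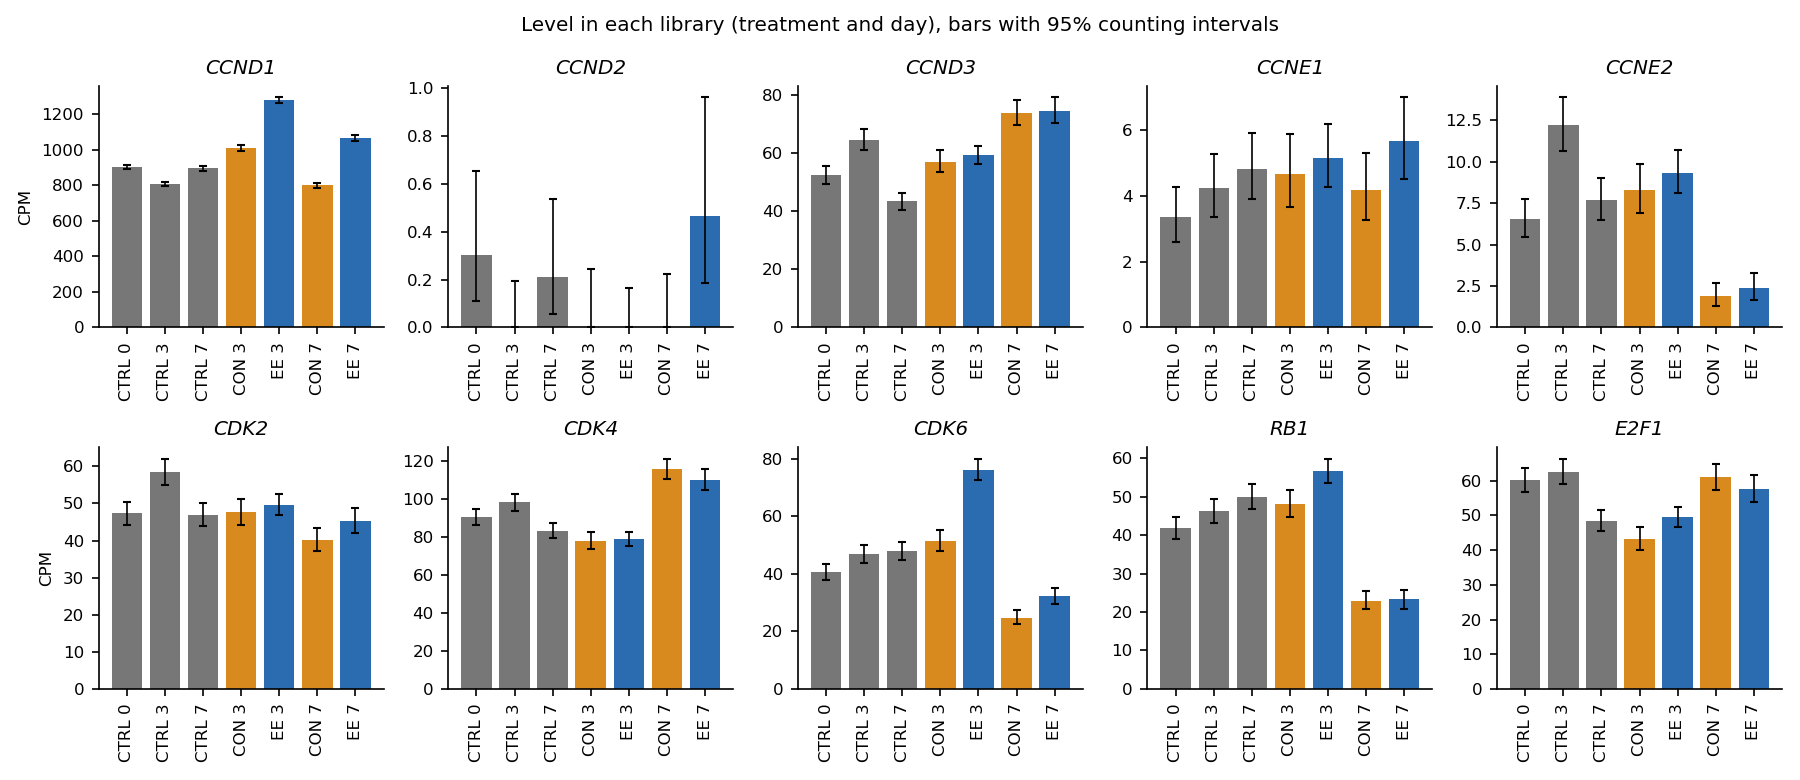
Level of each of the 10 genes in CPM (vertical axes, each from 0) in the 7 libraries, named by treatment and day, with bars in grey for CTRL, orange for CON and blue for EE and error bars for the 95% Poisson counting interval. CCNE2, CDK6 and RB1 are lowest in both day-7 topotecan libraries, CDK4 and CCND3 are highest there, and CCND2 is at or near 0 throughout.

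Among the D-type cyclins, CCND1 carried 83.8% to 91.2% of the D-type transcripts per kb. Its level was 903, 808 and 895 CPM without drug on days 0, 3 and 7. On day 3 it was 1012 CPM with CON and 1281 CPM with EE, and on day 7 it was 802 and 1067 CPM. Both day-3 topotecan libraries lay above the untreated ones, while CON on day 7 lay below them in CPM and among them after scaling. The log2 change against untreated was 0.31 ± 0.17 (SE) on day 3, with an adjusted p of 0.413, and 0.29 ± 0.17 on day 7, with an adjusted p of 0.189 (limma).

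CCND3, a D-type cyclin that also pairs with CDK4 and CDK6, was higher on day 7 of topotecan. It stood at 52.3, 64.5 and 43.3 CPM in untreated spheroids of days 0, 3 and 7. It was 57.0 CPM with CON and 59.3 CPM with EE on day 3, and 73.8 and 74.6 CPM on day 7. Both day-7 topotecan libraries lay above all 5 others, and the day-3 libraries lay within the untreated range. CCND3 rose 1.61-fold (95% interval 1.26 to 2.04) on day 7 against untreated, with an adjusted p of 0.00556 (limma). Its share of the D-type transcripts was 9.19% to 14.3% in untreated libraries and 16.2% with CON and 12.8% with EE on day 7.

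CCND2, the third D-type cyclin, gave 6 reads in untreated spheroids of day 0, 4 on day 7 and 7 in EE on day 7, and 0 reads in the other 4 libraries. A count of 0 allows up to 0.133 to 0.197 CPM in these libraries (3 reads, counting error only). The gene was not tested.

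Of the E-type cyclins, the CDK2 partners, CCNE2 changed and CCNE1 did not pass the test. CCNE2 was at 6.54, 12.2 and 7.68 CPM without drug on days 0, 3 and 7, 8.29 CPM with CON and 9.33 CPM with EE on day 3, and 1.89 and 2.37 CPM on day 7. These last values rest on about 31 and 36 reads. Both day-7 topotecan libraries lay below all others, and the day-3 ones lay within the untreated range. CCNE2 fell to 0.363-fold of untreated on day 7 (95% interval 0.251 to 0.525, adjusted p = 0.000941, limma), the largest change among the 9 genes tested. CCNE1 was at 3.36, 4.23 and 4.83 CPM untreated, 4.67 and 5.16 CPM on day 3 and 4.19 and 5.66 CPM on day 7, with CON before EE. Its day-7 log2 change of 0.37 had a 95% interval of -0.088 to 0.83 and an adjusted p of 0.172 (limma).

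The ratio of CCNE2 to CCNE1 within a library does not depend on the scaling. Per kb it was 1.16 to 2.11 in untreated spheroids, 1.30 with CON and 1.32 with EE on day 3, and 0.330 and 0.306 on day 7. CCNE2 thus had the higher value per kb in the untreated and day-3 topotecan libraries. It had the lower value in the 2 topotecan libraries of day 7, with 1 library behind each value. The order is uncertain to the extent that reads of CCNE2 were shared with INTS8, as given below, which was not tested.

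The G1 kinases CDK4 and CDK6, which share the D-type cyclins, moved in opposite directions before any removal of trends. With the trend on gene span, transcript length and GC content removed, both were above untreated on day 7. Their log2 changes were then 0.23 and 0.28, and neither passed. CDK4 stood at 90.8, 98.4 and 83.4 CPM in untreated spheroids of days 0, 3 and 7. On day 3 it was 78.0 CPM with CON and 79.1 CPM with EE, below all untreated libraries, and on day 7 it was 116 and 110 CPM, above all of them. CDK4 rose 1.43-fold (95% interval 1.19 to 1.71, adjusted p = 0.00540, limma) on day 7, and its day-3 log2 change of -0.28 had an adjusted p of 0.292.

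CDK6 stood at 40.7, 46.8 and 47.8 CPM untreated, at 51.5 CPM with CON and 76.2 CPM with EE on day 3, and at 24.7 and 32.2 CPM on day 7. The day-3 topotecan libraries lay above the untreated ones and the day-7 libraries below them, and in both pairs EE was higher than CON. CDK6 fell to 0.727-fold on day 7 (95% interval 0.559 to 0.944), with an adjusted p of 0.0493 (limma) that was just inside the threshold. The call was lost in 10 of 17 alternative settings and the direction turned in 2 more, those that remove the trend with gene span. The day-3 log2 change of 0.39 had an adjusted p of 0.311.

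The CDK6 to CDK4 ratio per kb was 0.0717, 0.0761 and 0.0918 in untreated libraries of days 0, 3 and 7. It was 0.105 with CON and 0.154 with EE on day 3 and 0.0341 and 0.0467 on day 7. All day-3 topotecan values were above and all day-7 values below the untreated ones. CDK6 spans 232 kb and CDK4 4.59 kb, and the day-7 change of all genes ran with span, as given below. The part of span in this ratio was not tested.

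CDK2, the partner of the E-type cyclins, did not pass in any comparison. It was at 47.3, 58.4 and 46.9 CPM untreated, 47.6 and 49.6 CPM on day 3 with CON and EE, and 40.2 and 45.3 CPM on day 7. Its day-7 log2 change was -0.045 with a 95% interval of -0.34 to 0.25, and the sign of so small a value turned when single libraries were left out.

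**Figure D2:**
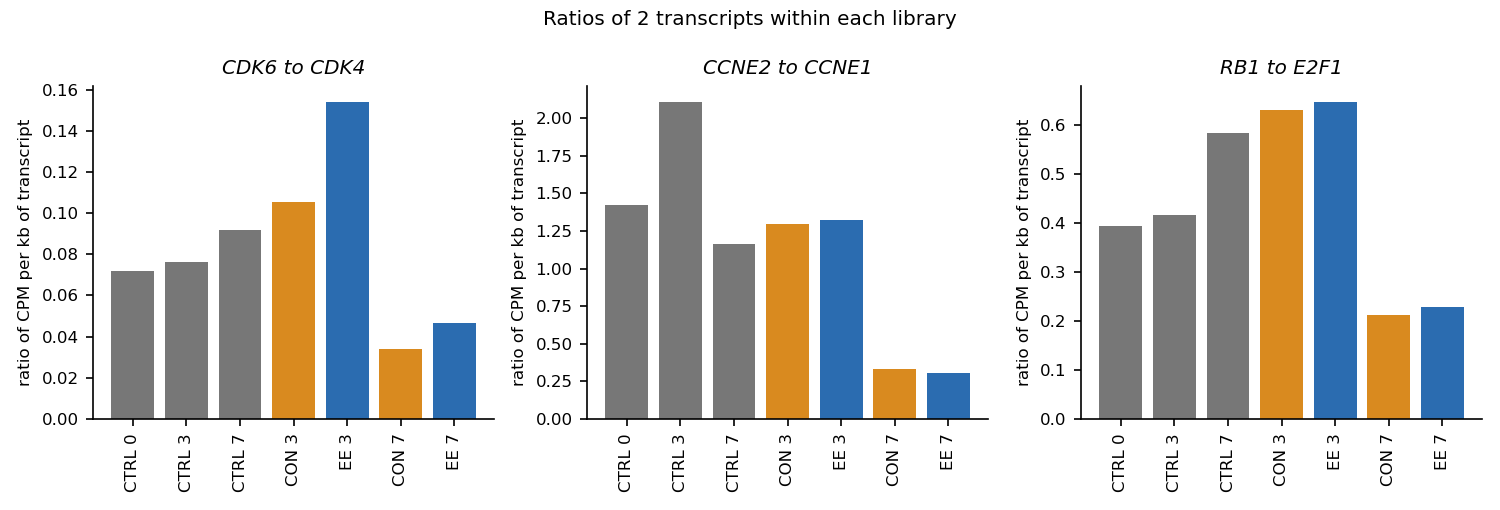
Ratio of CPM per kb of canonical transcript between CDK6 and CDK4, CCNE2 and CCNE1, and RB1 and E2F1 (vertical axes, from 0) in each of the 7 libraries, with CTRL in grey, CON in orange and EE in blue. All 3 ratios are lowest in the day-7 topotecan libraries, at 0.0341 and 0.0467, 0.330 and 0.306, and 0.212 and 0.228. CDK6 and RB1 span 232 and 178 kb, and CDK4 and E2F1 span 4.59 and 10.9 kb. Median day-7 log2 changes were -0.40 for genes of 100 to 250 kb, 0.41 under 5 kb and 0.19 at 5 to 20 kb.

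RB1, the brake that these kinases release, stood at 41.9, 46.2 and 50.05 CPM without drug on days 0, 3 and 7. It was 48.2 CPM with CON and 56.6 CPM with EE on day 3, and 23.0 and 23.3 CPM on day 7. The day-7 topotecan libraries lay below all others. RB1 fell to 0.588-fold of untreated on day 7 (95% interval 0.484 to 0.714, adjusted p = 0.000963, limma), and its day-3 log2 change of 0.10 had an adjusted p of 0.739.

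E2F1, the factor that RB1 restrains, stood at 60.2, 62.6 and 48.5 CPM in untreated spheroids of days 0, 3 and 7. It was 43.2 CPM with CON and 49.4 CPM with EE on day 3, and 61.0 and 57.7 CPM on day 7. After scaling the day-3 topotecan libraries lay below all untreated ones. Its log2 change was -0.37 on day 3, with an adjusted p of 0.272, and 0.26 on day 7, with an adjusted p of 0.174 (limma). Against the untreated library of day 7 alone, the lowest of the untreated ones, E2F1 was higher by 0.52 with an adjusted p of 0.0263, the 1 alternative of 17 in which it passed.

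Per kb, RB1 stood to E2F1 at 0.392 to 0.583 in untreated libraries, at 0.630 and 0.646 on day 3 and at 0.212 and 0.228 on day 7 with CON and EE. The day-7 values were below every other library's. RB1 spans 178 kb and E2F1 10.9 kb, and the part of span in this ratio was not tested either.

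Over the 9 genes tested on day 3 of topotecan, 0 passed the threshold, as did 0% of all 14836 genes, of which 15.4% had an unadjusted p under 0.05. CCND1 and CDK6 lay above and CDK4 and E2F1 below all untreated libraries after scaling, which is 4 of 9 genes where 33.9% of all genes did not overlap. On day 7, 5 of 9 passed against 43.4% of all genes, with CCND3 and CDK4 higher, where 20.2% of all genes were, and CCNE2, CDK6 and RB1 lower, where 23.3% were. After scaling, 7 of 9 did not overlap with untreated libraries, E2F1 and CCNE1 among them, where 63.2% of all genes did not. The share of these genes called was thus near that of the whole transcriptome.

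**Figure D3:**
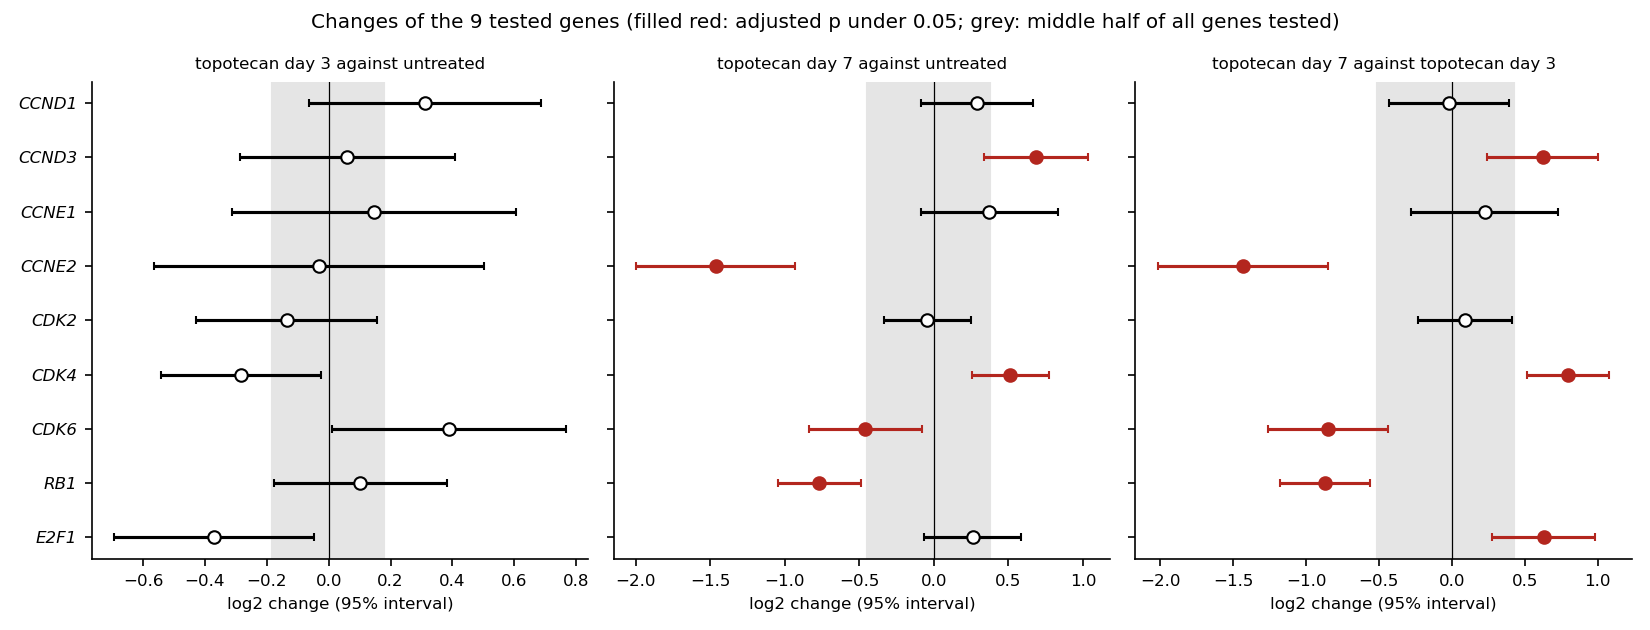
Log2 change of the 9 tested genes in 3 comparisons (horizontal axes, differing in range) with 95% intervals from limma, filled red where the adjusted p is under 0.05 and with the interquartile range of all genes tested in grey. No gene is red on day 3, and CCNE2, at -1.46 against untreated and -1.43 against day 3, lies farthest from 0.

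Between day 3 and day 7 of topotecan, 6 of 9 genes passed (limma), where 45.2% of all genes did. CCNE2 fell by 1.43, RB1 by 0.87 and CDK6 by 0.85 on the log2 scale. CDK4 rose by 0.80, E2F1 by 0.63 and CCND3 by 0.62, while CCND1, CCNE1 and CDK2 did not pass. CCNE2 and CDK4 passed in all 16 alternative settings. CCND3 did not pass in 7 of them, among them library totals (0.35, adjusted p = 0.114) and the fits without any 1 of the topotecan libraries (adjusted p of 0.0581 to 0.0637). E2F1 did not pass in 5 of 16, among them library totals (0.35, adjusted p = 0.0766) and the fits without CON of day 3 (0.0625) or of day 7 (0.0611). CDK6 did not pass without EE of day 3 (-0.58, adjusted p = 0.0552) and turned sign with the span trend removed, with which RB1 did not pass either (-0.27, adjusted p = 0.136). This comparison shares its libraries with those against untreated spheroids.

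Between the regimens, with day as a term, 0 of the 9 genes and 0% of all genes passed (limma), and 0.903% of all genes had an unadjusted p under 0.05. CDK6 had the highest log2 difference of EE to CON at 0.44, with a 95% interval of -0.30 to 1.18 that contains no change and more than a doubling. CCND1 followed at 0.35 (-0.28 to 0.98). CCND1 was the sole member whose EE libraries both lay above both CON libraries after scaling, where 13.7% of all genes did not overlap. That rule pools the days. Within each day, EE also lay above CON for CDK6, CCNE1, CCNE2 and CDK2. For CDK6 the log2 differences were 0.53 on day 3 and 0.34 on day 7, and for CCND1 0.32 and 0.38. CDK4 lay below on both days, and CCND3, RB1 and E2F1 changed order between days. With 1 library per regimen and day, the fit with day as a term could not resolve differences of this size. Its error also held any gap between treatments that changed from day 3 to day 7, untreated libraries included. The SE was larger than on day 7 against untreated for all 9 genes, at 0.33 and 0.12 for CDK4. A fit of the CON and EE libraries alone called 0 of the 9 genes. Of all 14836 genes that fit called 51 higher and 28 lower. The part of each source in the width of the intervals was not tested.

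The genes differ greatly in their length on the genome, and the day-7 change of all genes ran with that length. In hg38 coordinates of the deposited table, CDK4 lies at chr12:57747727-57752311 on the minus strand and CDK2 at chr12:55966830-55972790 on the plus strand, spanning 4.59 and 5.96 kb. E2F1 (chr20:33675477-33686386, minus), CCNE1 (chr19:29811991-29824313, plus), CCND1 (chr11:69641156-69654475, plus) and CCNE2 (chr8:94880225-94895255, minus) span 10.9, 12.3, 13.3 and 15.0 kb. RB1 (chr13:48303751-48481891, plus) and CDK6 (chr7:92604921-92836574, minus) are long, at 178 and 232 kb. CCND3 (chr6:41934933-42048895, minus) is listed at 114 kb, but its canonical transcript spans 6.86 kb, and CCND2 lies at chr12:4273762-4305353 on the plus strand.

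On day 7 the median log2 change was 0.41 over 1794 genes under 5 kb, 0.19 over 4282 genes of 5 to 20 kb, and -0.40 over 1875 genes of 100 to 250 kb. CDK4, at 0.51, and E2F1, at 0.26, were thus near the medians of genes of their length, and CDK6, at -0.46, was near that of the long genes. CCNE2, at -1.46, lay far below the interquartile range of genes of 5 to 20 kb, which was -0.19 to 0.55. RB1, at -0.77, lay just below the interquartile range of -0.74 to -0.072 for its class.

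With the linear trend on span, transcript length and GC content removed, 22.4% of 14261 genes were called on day 7, and CCNE2 alone of the 9 genes still passed, at a log2 change of -1.13 (adjusted p = 0.00603, limma). RB1 was at -0.22 (0.172), CCND3 at 0.36 (0.153) and CDK4 at 0.23 (0.133), with adjusted p in parentheses. With the span of the canonical transcript in the trend, CCND3 was at 0.24 (0.264). CDK6 turned to 0.28 and E2F1 to -0.14, neither past the threshold. The part of gene length in the changes of the single genes was not tested.

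**Figure D4:**
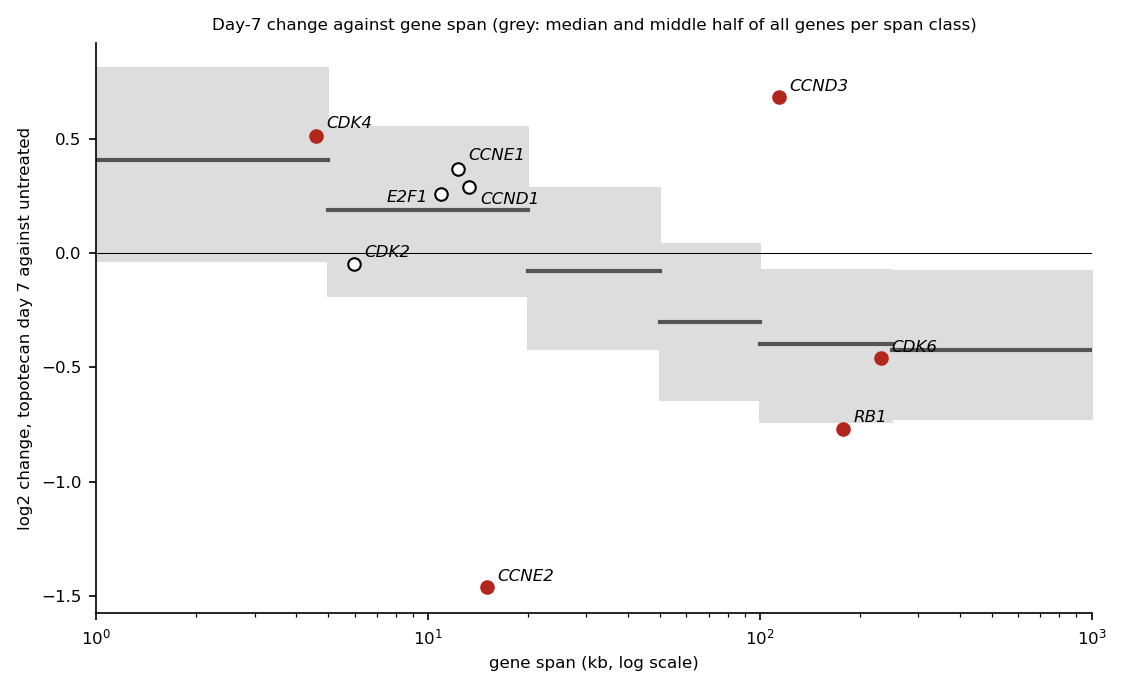
Log2 change on day 7 of topotecan against untreated (vertical axis) by gene span in kb (horizontal log axis), with the 9 tested genes as points, red where called, and the median and interquartile range of all genes per span class in grey. The grey medians go from 0.41 under 5 kb to -0.42 over 250 kb, and CCNE2 at -1.46 and CCND3 at 0.68 lie outside the grey range, with RB1 at -0.77 just outside it. CCND3 is drawn at its listed span of 114 kb. Its canonical transcript spans 6.86 kb, and the interquartile range of genes of 5 to 20 kb was -0.19 to 0.55.

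Some of these genes share sequence with a neighbour on the other strand, and the library kit does not mark strand. In CCNE2, 1522 bases or 56.9% of the canonical transcript lie in exons of INTS8, a subunit of the Integrator complex, and the estimated CCNE2 reads were not whole numbers, at 31.2 and 35.6 in the day-7 topotecan libraries. INTS8 itself stood at 78.5 to 98.1 CPM in the untreated and day-3 libraries and at 48.5 and 47.3 CPM on day 7, a log2 change of -0.67 (adjusted p = 0.00118, limma). CCNE2 values are therefore uncertain to the extent that reads were shared, and the part of INTS8 in them was not tested.

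CDK4 shares 1078 exonic bases, 57.8% of its transcript, with TSPAN31, a tetraspanin gene. TSPAN31 stood at 33.2 to 40.5 CPM and had a log2 change of 0.22 on day 7 (adjusted p = 0.237, limma). CDK4 values are likewise uncertain to the extent that reads were shared, and the part of TSPAN31 in them was not tested. CDK6 shares 86 bases with CDK6-AS1, which was at 0.333 CPM or less. LPAR6 lies in an RB1 intron with 0 shared exonic bases and changed by -0.48 (adjusted p = 0.0412, limma).

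The 7 CDK inhibitors, which restrain the kinases, lay above untreated on day 7 in 6 of 7 cases, where 6920 of all 14836 genes did. Of them 4 passed upward and 0 downward, where 20.2% of all genes passed upward and 23.3% downward, with a list median of 0.83 against -0.053 over all genes (log2). With the span trend removed 2 passed and the median was 0.24, and with library totals 3 passed and the median was 0.64. CDKN2A, which encodes the CDK4 and CDK6 inhibitor p16 and, from another reading frame, ARF, was at 89.2 to 119 CPM untreated, 130 and 97.0 CPM on day 3 and 232 and 260 CPM on day 7. Its log2 change of 1.47 (adjusted p = 0.000126, limma) was the highest of the list. CDKN1C (p57) rose by 1.14, CDKN1A (p21) by 0.89 and CDKN2D (p19) by 0.83. CDKN1A also varied among untreated libraries, at 48.1, 117 and 59.1 CPM on days 0, 3 and 7. On day 3 no inhibitor passed, and the highest values were 0.60 for CDKN1B (p27), the lowest -0.34 for CDKN2C (p18), with CDKN2B (p15) at 0.48 and CDKN1C at -0.030.

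Of the 11 other pocket proteins, E2F factors and their DP partners, 4 fell and 1 rose on day 7, where 23.3% of all genes fell and 20.2% rose, with a list median of -0.40. With the span trend removed 2 fell and 0 rose and the median was -0.15, and with library totals 8 fell and 0 rose and the median was -0.59. RBL2 and RBL1, the p130 and p107 relatives of RB1, fell by 1.18 and 0.98 on the log2 scale. RBL2 was at 32.1 to 47.7 CPM untreated and at 13.1 CPM with CON and 14.7 CPM with EE on day 7. The repressor E2F7 fell by 0.52 and the DP subunit TFDP1 by 0.49, while E2F4, which acts with p107 and p130, rose by 0.37 (limma). On day 3 none passed, with E2F7 at 0.26, E2F3 at 0.24, E2F5 at -0.28 and TFDP1 at -0.51.

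Among 12 genes that activate the kinases or control cyclin turnover, 1 rose and 2 fell on day 7, or 3 of 12 where 43.4% of all genes passed. The list median was -0.081, turning to 0.073 with the span trend removed, when 1 rose and 0 fell, and to -0.27 with library totals, when 0 rose and 3 fell. CKS1B, a CDK-binding subunit that helps to degrade p27, rose by 0.52, and SKP2, which marks p27 for degradation, fell by 0.44. GSK3B, which phosphorylates cyclin D1 for export and degradation, fell by 0.46 (limma). On day 3 none passed, with FBXW7, which targets cyclin E, at 0.58, GSK3B at 0.20, SKP1 at -0.31 and CKS1B at -0.37.

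The 18 E2F target genes of replication lay below untreated on day 3 in 18 of 18 cases, where 7584 of all 14836 genes did. Their median log2 change was -0.27 against -0.0079 over all genes, but 0 passed the threshold. Without the untreated library of day 3, 14 of 18 were below, where 7617 of all 14836 genes were, and the median was -0.24. The lowest were TK1 at -0.43 and MCM2 at -0.42, and the highest were SLBP at -0.062 and CHAF1A at -0.085. On day 7, 2 of its genes rose and 2 fell, or 4 of 18 where 43.4% of all genes passed. With the span trend removed 0 rose and 1 fell, with library totals 2 rose and 7 fell, and against the untreated library of day 7 alone 4 rose and 3 fell. CDT1, a replication licensing factor, was higher by 0.89 and TK1, thymidine kinase, by 0.87, while POLA1, a DNA polymerase subunit, fell by 0.65 (limma). The other 14 did not pass, and the day-7 median was -0.12, with 12 of 18 below untreated, where 7916 of all 14836 genes were. Under library totals the median was -0.31, and against the untreated library of day 7 alone it was 0.071.

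Between the regimens none of these 48 genes passed (limma). The list medians of the EE to CON difference were 0.088 for the inhibitors, with CDKN1A at 0.28 and CDKN2B at 0.16 highest and CDKN2C at -0.33 and CDKN1B at -0.18 lowest. They were 0.028 for the pocket protein and E2F list, where E2F8 at 0.46 and E2F3 at 0.17 were highest and E2F5 at -0.25 and E2F2 at -0.18 lowest. The activator list had a median of -0.014, with MYC at 0.40 and CDC25A at 0.37 highest and CUL1 at -0.25 and CDK7 at -0.18 lowest. The E2F target list had a median of -0.016, with MCM2 at 0.17 and UHRF1 at 0.12 highest and CDT1 at -0.25 and POLA1 at -0.11 lowest.

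**Figure D5:**
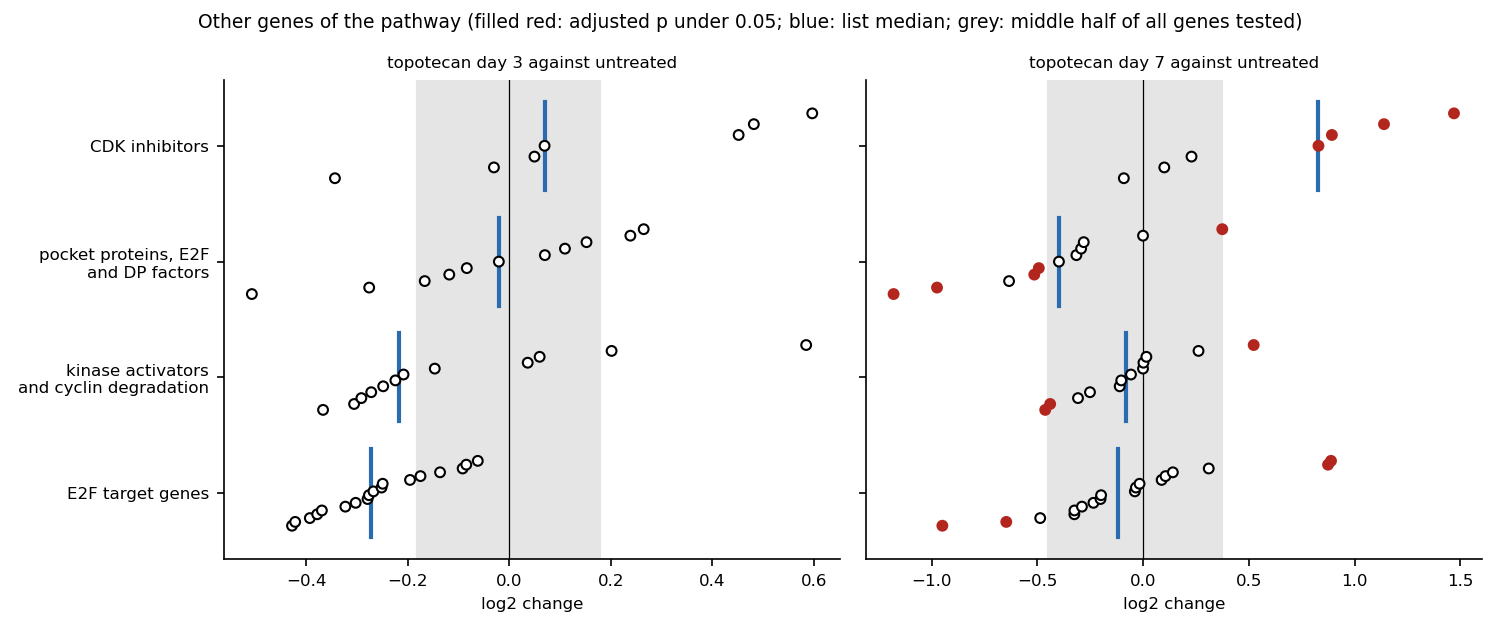
Log2 change of each gene (points) of the 4 pathway lists on day 3 and day 7 of topotecan against untreated (horizontal axes, differing in range), filled red where the adjusted p is under 0.05, with list medians in blue and the interquartile range of all genes tested in grey. No point is red on day 3, where all 18 E2F targets lie below 0, as do 7584 of all 14836 genes. On day 7 the CDK inhibitors have a median of 0.83.

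Over the 7 libraries, CCNE2, CDK6 and CCND3 had the widest log2 ranges of the 9 genes. Among 11332 genes with a mean of at least 5 CPM, the profile most like that of CCNE2 was that of RFX5 (Pearson r = 0.996, 7 libraries), followed by FAF2 and CEP57L1. CDK6 was most like ZNF644 (r = 0.997), PHLPP2 and FAM214A, and CCND3 most like WDR24 (r = 0.990), PITHD1 and MACROH2A2. An r above 0.95 was reached by 267 genes for CCNE2, 77 for CDK6 and 114 for CCND3. With so few points, which share libraries and depth, such values are common and describe the profiles only. Within the set, CDK4 went with E2F1 (r = 0.92) and against RB1 (r = -0.94) and CDK6 (r = -0.88) over the same libraries. Other pairs were as close, such as RB1 with CCNE2 (r = 0.93) and RB1 with CCND3 (r = -0.89). CDK4 and E2F1 span 4.59 and 10.9 kb, and RB1 and CDK6 span 178 and 232 kb. The part of span in these values was not tested.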

How the data were processed

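Levels are the deposited CPM of 18144 genes, which the authors made by mapping reads to hg38 with STAR and scaling counts to 1000000 per library. Per the labels the authors used Partek, and the strand setting of the counting is not given in the sources used here. An offset of 0.0001 CPM in every value was subtracted. Depth was estimated from the step of 1 read among low values, of which 92.4% to 94.2% lay within 0.1 of a whole read, so no count test was run. limma 3.58.1 (R 4.3.3) was fitted on log2(TMM-scaled CPM + 1) with a mean-variance trend where 2 or more libraries had at least 0.528 CPM, or 10 reads at the median depth, with Benjamini-Hochberg adjustment over 14836 genes at 0.05. Fold changes are on this scale and understate changes of low genes.

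Fits against untreated used 7 libraries in 3 states, and EE against CON used 6 libraries with treatment and day as terms. Labels gave the groups, and the day-1 samples, 3 of the 10, were not analysed here. Transcript length, span and GC content came from GENCODE 44, and promoters from RefSeq, where 5 of the 10 genes had an entry within 100 bases of the canonical start. The genes and lists were chosen with earlier results of these data known. Named list genes were those called or, where none was, the 2 highest and 2 lowest. Values of 1 called list gene and of some marker genes are not reported here. Likeness was sought for the 3 genes of widest range. Alternatives covered scaling, pseudocount, filter, variance model, baseline, gene structure and leaving out each library. The trend on canonical-transcript span, the test against the same-day untreated library and the list counts under each alternative were added after seeing the data. The fit was tested on simulated data. Python 3.11.15 was used with pandas 2.3.3 and numpy 2.4.6, figures were drawn in matplotlib 3.10.9, and scipy 1.17.1 gave the counting intervals.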

Additional observations from a re-analysis of the deposited data

Results flagged for a closer look

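The difference between the day-7 and the day-3 effect of topotecan passed the threshold for 6 of the 9 genes tested (limma, Benjamini-Hochberg), where 45.2% of all genes did. As both effects are taken against the same untreated libraries, this difference equals day 7 against day 3 of topotecan. The log2 differences were 0.62 for CCND3, -1.43 for CCNE2, 0.80 for CDK4, -0.85 for CDK6, 0.63 for E2F1 and -0.87 for RB1. With the trend on span, length and GC content removed, CCNE2 at -1.12 (adjusted p = 0.0113) and CDK4 at 0.45 (adjusted p = 0.0198) passed, and the other 4 did not.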

How the results depend on the processing

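No paired analysis was possible because the labels give 1 library per treatment and day and no replicate numbers that could pair them. EE and CON were matched by day, which is a term of their fit. With only the same-day untreated library as the baseline, and with the spread taken between the regimens and the lone untreated library assumed to vary like them, 2 genes were called on day 3 and 5763 on day 7. Values of that baseline included -0.20 for CCND3, 0.44 for CCND1, -0.48 for CCNE2 and -0.32 for CDK2 on day 3, none past the threshold. On day 7 they were 0.10 for CDK2, 1.00 for CCND3, 0.67 for CDK4, -0.85 for RB1, 0.52 for E2F1, which passed there, and -0.51 for CDK6, which did not (adjusted p = 0.118). CCNE2 kept its direction and its call on day 7 in all 17 alternatives, at -1.60 to -1.24 when single libraries were left out. CDK4 lost its day-7 call without the CON library of day 7 (adjusted p = 0.0537) and with the trend removed.

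On day 3, a pseudocount of 0.25 gave 6 calls and each trend removal 7, and leaving out single libraries gave 0 to 212, the highest without the untreated library of day 3. On day 7 the trend removals left 3189 (listed span) and 3179 (canonical span) calls of 6444, and leaving out libraries 4047 (without EE of day 7) to 6271. Between days, 2792 and 2801 of 6705 were left, and leaving out libraries gave 3850 (without EE of day 3) to 6929. Between the regimens, the 4 libraries of CON and EE alone gave 79 calls and leaving out libraries 0 to 75, with 75 both without the day-3 and without the day-7 untreated library.

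Beside CCND3 and CDK2 above, signs turned as follows. With library totals, CCNE2 on day 3 was 0.040, and between days CCNE1 was -0.0077 and CDK2 -0.18. With median-of-ratios scaling CCND1 between days was 0.020. With the trend on listed and on canonical span removed, CDK6 on day 7 was 0.28 and 0.28, E2F1 on day 7 -0.14 and -0.13, and between days CCND1 was 0.052 and 0.069, CCNE1 -0.046 and -0.037, CDK2 -0.058 and -0.035 and CDK6 0.042 and 0.033. Leaving out single libraries gave -0.096 to 0.19 for CCND3, -0.17 to 0.19 for CCNE2 and -0.00025 to 0.21 for RB1 on day 3, -0.12 to 0.046 for CDK2 on day 7 and -0.21 to 0.17 for CCND1 between days. For EE against CON it gave -0.31 to 0.33 for CCND3, -0.063 to 0.40 for CCNE2, -0.056 to 0.23 for CDK2, -0.35 to 0.25 for CDK4, -0.22 to 0.42 for RB1 and -0.33 to 0.39 for E2F1. The cause was not tested.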
